A study of Mus musculus with 8 samples.

Results

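The 9 genes described here take part in the making of osteoclasts, the bone-resorbing cells that arise when macrophage precursors fuse. They are *Tnfrsf11a*, *Oscar*, *Calcr*, *Nfatc1*, *Dcstamp*, *Ocstamp*, *Acp5*, *Ctsk* and *Mmp9*. They were picked by name, with earlier results of these data known. The 50615 genes of an RNA-seq table of mouse bone marrow-derived macrophages (BMDMs) held all 9. Of these, 7 passed the filter of at least 10 reads summed over 8 libraries and were tested together with 17625 genes in all. *Oscar* and *Calcr* did not pass and are described by their reads.

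BMDMs are macrophages grown from bone marrow with M-CSF, here at 20 ng/ml over 6 days, and the culture protocol names no RANKL. All mice were C57BL/6 and homozygous for a floxed *Ncoa6* allele. *Ncoa6*-KO BMDMs came from *Ncoa6* fl/fl LysM CRE mice, in which Cre is made from the lysozyme M locus in myeloid cells, so that other cells of a culture keep the gene. *Ncoa6*-sufficient BMDMs came from *Ncoa6* fl/fl mice without Cre, which the labels call WT. Cells of each genotype received medium alone or LPS + MSU, meaning LPS at 100 ng/ml, to which monosodium urate crystals at 200 µg/ml were added after 4 h for a further 2 h. Each of the 4 groups held 2 libraries from different mice. Expected counts of read pairs assigned to genes, called reads in this text, summed to 25281955 to 33673552 per library. Ages were not given in the sources used here. With 2 libraries on each side, an exact permutation test cannot give a two-sided p below 0.333, so the tests below are edgeR's quasi-likelihood tests, which pool the spread over all genes and groups. Genes were called where the p, adjusted by Benjamini and Hochberg over 17625 genes, was under 0.05. Nothing in the sources ties libraries of different groups to the same animal, and p-values measure the spread between these libraries.

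*Ncoa6*, which encodes a nuclear receptor coactivator, was measured at 1515 and 1405 normalized counts in *Ncoa6*-sufficient and at 784 and 622 in *Ncoa6*-KO BMDMs in medium alone. Under LPS + MSU it stood at 1297 and 1173 against 563 and 526. The libraries of the 2 genotypes did not overlap under either condition and were ordered as their labels require. Counts per gene do not resolve the floxed exon. Normalized counts refer to a common effective library size of 29332189 reads, the mean over libraries. The 6 macrophage markers together gave 136242 to 273439 normalized counts in every library. The sums were lower in *Ncoa6*-KO BMDMs, at 136242 to 159233 against 175794 to 179120 in medium alone and at 235107 to 250599 against 267308 to 273439 after LPS + MSU. edgeR called 1 of the 6 lower in each comparison, beside 1.3% and 1.63% of all genes. It was *Cd14* in medium alone (adjusted p = 0.0298) and *Itgam* after LPS + MSU (adjusted p = 0.0412). Neither was called in the other comparison (edgeR adjusted p = 0.905 and 0.125). Neutrophil markers summed to 570 to 1146, dendritic cell markers to 26.3 to 233 and endothelial markers, mostly *Kdr*, to 362 to 6794 normalized counts, with the endothelial marker *Emcn* at 0. Averaged over both conditions, *Kdr* and *Cdh5* were lower in *Ncoa6*-KO BMDMs (log2 -0.68 and -1.14, edgeR adjusted p = 0.0252 and 0.0247). These were 2 of 3 tested endothelial markers, beside 4.59% of all genes called lower. The other, *Tek*, had at most 5 reads in a library and stood at 0.88 (edgeR adjusted p = 0.683). In each condition alone, 0 of the 3 were called between genotypes. The part of *Kdr* and *Cdh5* in the results below was not tested. Markers of B cells, of T and NK cells and of mast cells summed to at most 12.4 normalized counts in any library.

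Osteoclast formation starts when RANKL binds its receptor RANK, encoded by *Tnfrsf11a*, on precursors kept alive by M-CSF. The adaptor TRAF6, NF-κB and AP-1 then raise NFATc1, the transcription factor at the head of the osteoclast program, with help from receptors such as OSCAR that signal through ITAM adaptors. NFATc1 turns on genes for cell fusion (*Dcstamp*, *Ocstamp*), for bone breakdown (*Acp5*, *Ctsk*, *Mmp9*) and for the calcitonin receptor (*Calcr*), a mark of mature osteoclasts. BMDMs in M-CSF are the precursors of this process, and macrophages also make several of these products outside bone.

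*Ocstamp*, *Oscar* and *Calcr* were at the edge of detection, and the other 6 genes were expressed at levels that this depth measures well. Levels of different genes can be compared only per length, here in TPM, a gene's share of all transcripts of a library, computed over merged exons. In *Ncoa6*-sufficient BMDMs in medium alone, the RANK gene *Tnfrsf11a* was the highest at 35.2 ± 3.63 TPM (SD, n = 2). It was followed by *Nfatc1* at 19.5 ± 1.74, *Ctsk* at 18.5 ± 0.401 and *Mmp9* at 17.1 ± 2.84 TPM, whose libraries overlapped, so that their order is not resolved. *Dcstamp* at 6.54 ± 0.366 and *Acp5* at 5.73 ± 1.84 TPM overlapped as well. *Ocstamp* stood at 0.110 ± 0.0467 and *Oscar* at 0.0791 ± 0.0318 TPM, while *Calcr* had no read.

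In *Ncoa6*-KO BMDMs in medium alone, *Ctsk* at 30.7 ± 2.56 and *Tnfrsf11a* at 28.5 ± 2.13 TPM (SD, n = 2) were the highest, and their libraries overlapped. Under LPS + MSU, *Ncoa6*-sufficient BMDMs held *Tnfrsf11a* at 45.2 ± 5.43, *Mmp9* at 26.2 ± 1.90 and *Acp5* at 23.2 ± 3.51 TPM, of which *Mmp9* and *Acp5* overlapped. In *Ncoa6*-KO BMDMs under LPS + MSU, *Tnfrsf11a* (27.7 ± 1.69 TPM), *Mmp9* (26.9 ± 1.12), *Ctsk* (22.2 ± 0.874) and *Acp5* (20.4 ± 5.73) lay close together. Dividing by the longest annotated transcript instead put *Mmp9* at 15.2 and *Ctsk* at 14.8 TPM in *Ncoa6*-sufficient BMDMs in medium alone, and *Tnfrsf11a* above *Ctsk* in *Ncoa6*-KO BMDMs, so the order of both pairs depends on the length used.

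**Figure D1:**
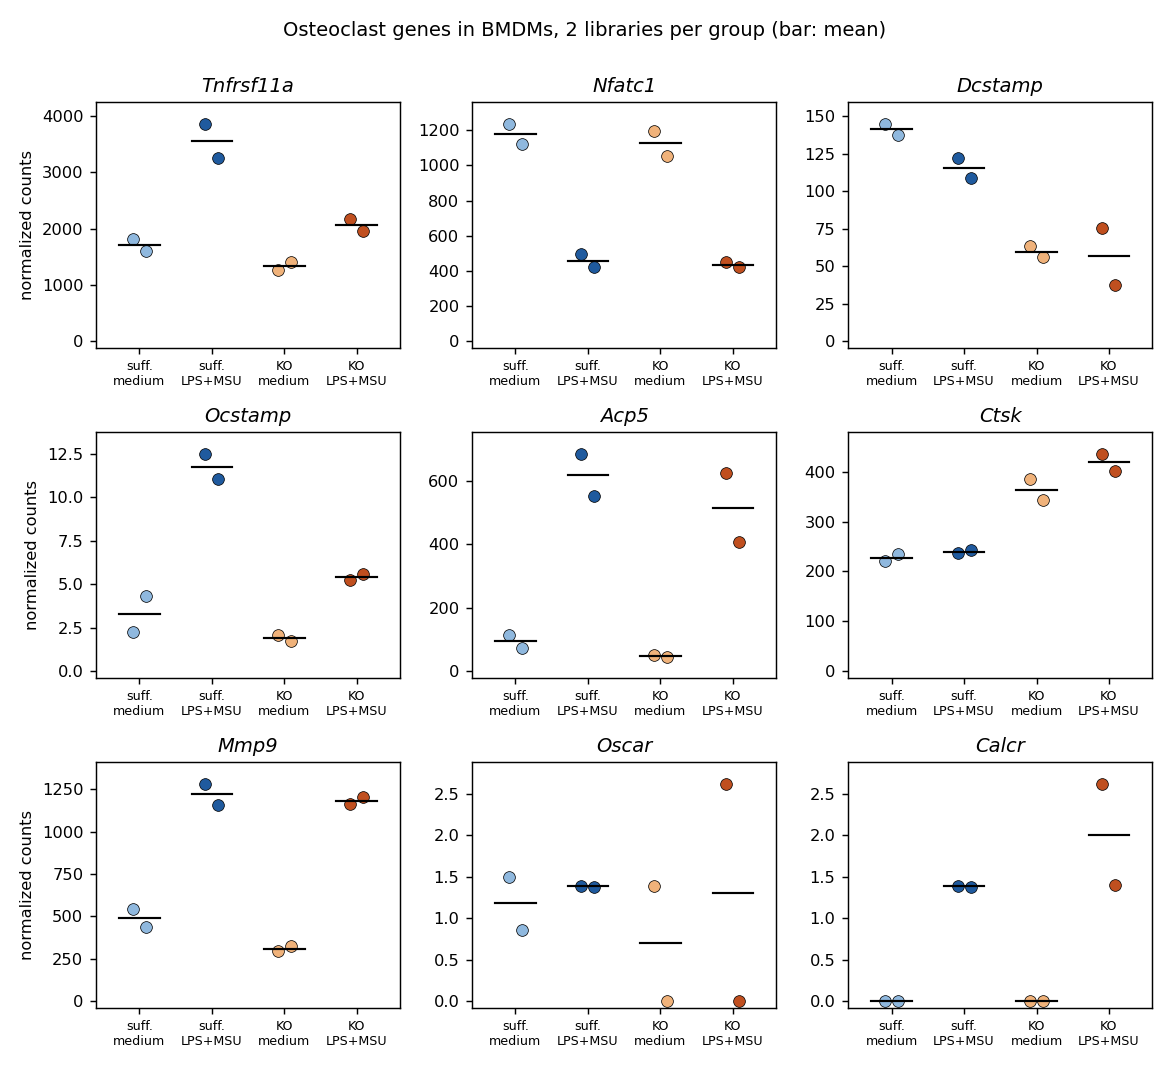
Normalized counts of the 9 osteoclast genes (vertical axis, linear, a separate scale per gene) in the 4 groups, with 1 point per library and a bar at the mean of 2 libraries. *Dcstamp* points of *Ncoa6*-KO BMDMs (orange) lie below and *Ctsk* points above those of *Ncoa6*-sufficient BMDMs (blue) under both conditions, while *Acp5* and *Mmp9* rise under LPS + MSU and *Nfatc1* falls in both genotypes.

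RefSeq promoter sequences on GRCm38.p6 were found for 5 of the 9 genes. The bases just before the first RefSeq start site are shown for *Ctsk* and *Tnfrsf11a*, the members called in opposite directions under LPS + MSU, and for *Acp5*, whose response to LPS + MSU was the largest of the 7 tested genes. Capitals mark matches on either strand to the core letters of factors that act in osteoclasts: NFAT (GGAAA), PU.1 (GAGGAA), AP-1 (TGANTCA) and MITF (CATGTG or CACGTG). The *Ctsk* stretch is chr3:95498960-95499209 on the forward strand, *Tnfrsf11a* is chr1:105780473-105780717 on the forward strand and *Acp5* is chr9:22135747-22135996 on the reverse strand, each written 5′ to 3′.
Ctsk: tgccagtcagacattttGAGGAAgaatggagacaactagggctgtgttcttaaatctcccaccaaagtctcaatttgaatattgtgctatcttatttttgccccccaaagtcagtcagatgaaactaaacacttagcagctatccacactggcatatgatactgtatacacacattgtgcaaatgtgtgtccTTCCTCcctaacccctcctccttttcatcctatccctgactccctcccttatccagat
Tnfrsf11a: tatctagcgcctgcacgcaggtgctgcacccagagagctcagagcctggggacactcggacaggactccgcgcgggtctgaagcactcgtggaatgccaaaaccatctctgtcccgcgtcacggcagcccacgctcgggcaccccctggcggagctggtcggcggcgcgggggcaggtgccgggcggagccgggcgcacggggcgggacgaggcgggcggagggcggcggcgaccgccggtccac
Acp5: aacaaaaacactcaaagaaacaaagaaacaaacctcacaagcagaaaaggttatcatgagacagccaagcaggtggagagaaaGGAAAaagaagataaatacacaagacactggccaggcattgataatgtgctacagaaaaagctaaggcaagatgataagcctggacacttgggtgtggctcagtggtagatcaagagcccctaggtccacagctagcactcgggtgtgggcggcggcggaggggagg
The *Ctsk* stretch held 2 PU.1 matches, beginning at -233 and, on the other strand, at -58 from the start site, and no match to the other letters. *Acp5* held 1 NFAT match at -167, and the *Tnfrsf11a* stretch held no match to any of the 4. Over 32817 promoters of that table, 55.6% held the NFAT letters, 23.3% those of PU.1, 6.75% those of AP-1 and 17.6% those of MITF, so such matches are common and describe the letters only. No match overlapped another in these 3 stretches.

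The first question was how the levels of these genes compared between the genotypes in resting macrophages. Cre was present on the *Ncoa6*-KO side only, and no group carried Cre beside an intact *Ncoa6* gene. Knockout effects in this text are therefore contrasts of these genotypes, and the part of Cre itself in them was not tested. In medium alone, *Ctsk* was higher in *Ncoa6*-KO than in *Ncoa6*-sufficient BMDMs, and *Dcstamp* and *Mmp9* were lower. These were 3 of the 7 tested genes, against 1.88% called among all genes tested, and 1 higher and 2 lower stand beside 0.573% and 1.3%. The genes were chosen with earlier results of these data known, so such shares, here and below, describe them and carry no test. The median log2 fold change of the 7 was -0.67, beside -0.03 for all genes, and 6 of the 7 lay below 0, as did 9814 of the 17625 genes. The libraries of the genotypes did not overlap for 6 of the 7 genes, where 43.1% of all genes tested did not overlap.

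Under LPS + MSU, *Ctsk* was again higher in *Ncoa6*-KO BMDMs and *Tnfrsf11a* was lower. These 2 of 7 stand beside 3.59% called among all genes, 1.96% higher and 1.63% lower. The median of the 7 was -0.26, beside 0.00039 for all genes, and 4 of the 7 did not overlap between genotypes, against 47.4% of all genes. The 2 comparisons share no library, but they come from one fit with a shared spread, and the sources do not say whether they share mice. In bulk RNA, fewer cells that express a gene and less of its RNA per cell cannot be told apart.

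**Figure D2:**
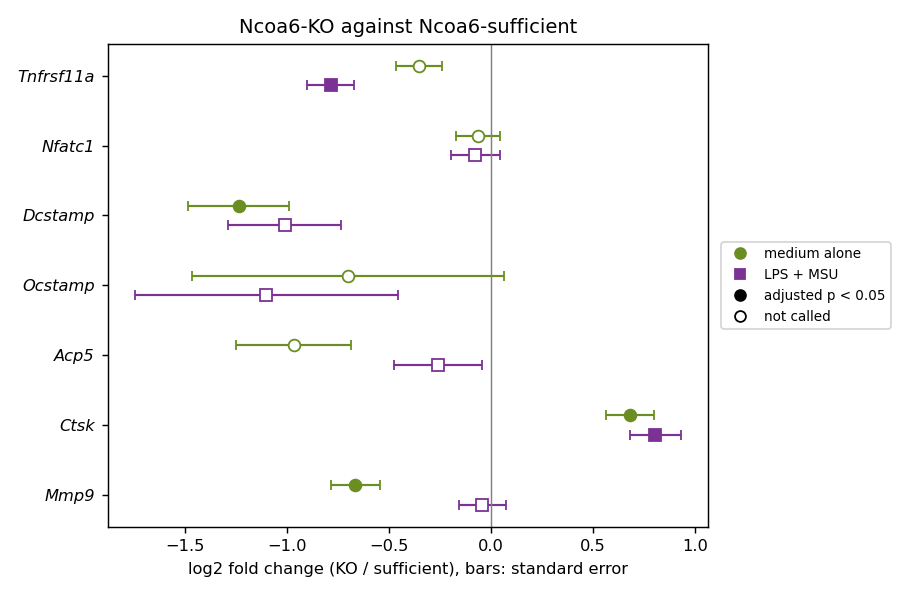
Log2 fold change of *Ncoa6*-KO over *Ncoa6*-sufficient BMDMs (horizontal axis) for the 7 tested genes, in medium alone (circles) and under LPS + MSU (squares). Bars are standard errors and filled symbols have an edgeR adjusted p under 0.05. *Ctsk* is the gene to the right of 0, at 0.68 and 0.80, and *Dcstamp* lies at -1.24 and -1.01.

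*Tnfrsf11a* (ENSMUSG00000026321, chromosome 1, 105780718 to 105847981 on GRCm38) encodes RANK, the receptor through which RANKL acts. Under LPS + MSU it was measured at 3854 and 3258 normalized counts in *Ncoa6*-sufficient and at 2177 and 1948 in *Ncoa6*-KO BMDMs. Both *Ncoa6*-KO libraries were lower than either *Ncoa6*-sufficient library, and 58.0% of the level was left. The log2 fold change was -0.79 (SE 0.114, adjusted p = 0.00638 from edgeR). In medium alone the values were 1807 and 1606 against 1263 and 1411. The libraries did not overlap here either, but the log2 fold change of -0.35 (SE 0.114) was not called at an edgeR adjusted p of 0.182, and called without a filter (0.0378). The call under LPS + MSU was lost without the first *Ncoa6*-sufficient or the second *Ncoa6*-KO library given LPS + MSU, with edgeR adjusted p up to 0.0925 and log2 fold changes between -0.91 and -0.67.

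The other receptors were barely detected. *Oscar* (ENSMUSG00000054594), an ITAM-linked costimulatory receptor, had 9 reads in all 8 libraries together. Of these, 2 and 1 fell in the *Ncoa6*-sufficient libraries in medium alone, 1 and 1 in those under LPS + MSU, 2 and 0 in the *Ncoa6*-KO libraries in medium alone and 2 and 0 in those under LPS + MSU. *Calcr* (ENSMUSG00000023964), the calcitonin receptor, had 5 reads, all of them under LPS + MSU: 1 and 1 in *Ncoa6*-sufficient and 2 and 1 in *Ncoa6*-KO libraries. No group exceeded 3 reads in a library for either gene, and a count of 0 in a library allows up to 3 reads, so no difference was detectable at this depth.

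*Nfatc1* (ENSMUSG00000033016), the transcription factor that leads the osteoclast program, showed no called knockout effect. It was measured at 1235 and 1119 normalized counts in *Ncoa6*-sufficient and at 1199 and 1051 in *Ncoa6*-KO BMDMs in medium alone. Given LPS + MSU, the values were 493 and 423 against 448 and 420. The genotypes overlapped under both conditions. The log2 fold changes were -0.07 (SE 0.108) and -0.08 (SE 0.122), with edgeR adjusted p of 0.885 and 0.808.

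*Dcstamp* (ENSMUSG00000022303, chromosome 15, 39745930 to 39760938), which encodes the membrane protein needed for osteoclasts and foreign-body giant cells to fuse, had the largest decrease among the called genes of the 9. In medium alone it was measured at 145 and 138 normalized counts in *Ncoa6*-sufficient and at 63.3 and 56.2 in *Ncoa6*-KO BMDMs, so that 42.4% was left. The log2 fold change was -1.24 (SE 0.248, adjusted p = 0.0358 from edgeR). The values under LPS + MSU were 122 and 109 against 75.8 and 37.8. The groups did not overlap, but the *Ncoa6*-KO libraries differed from each other by more than those of any other group, and the log2 fold change of -1.01 (SE 0.278) was not called at an edgeR adjusted p of 0.0789. Without the first of these libraries it was -1.62 and called (edgeR adjusted p = 0.0216), and without the second it was -0.61. The call in medium alone rests on few libraries, since the edgeR adjusted p reached 0.332 and the call was lost without any one of 6 libraries (all but the *Ncoa6*-KO libraries given LPS + MSU), with log2 fold changes from -1.33 to -1.16.

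*Ocstamp* (ENSMUSG00000027670), the partner of *Dcstamp* in fusion, was counted at 38 reads in all libraries. In medium alone it stood at 2.25 and 4.30 normalized counts in *Ncoa6*-sufficient and at 2.09 and 1.76 in *Ncoa6*-KO BMDMs. After LPS + MSU the values were 12.5 and 11.0 against 5.23 and 5.60. The log2 fold changes of -0.70 (SE 0.765) and -1.10 (SE 0.644) were not called, with edgeR adjusted p of 0.793 and 0.429.

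*Ctsk* (ENSMUSG00000028111, chromosome 3, 95499256 to 95509362) encodes cathepsin K, the protease that degrades collagen in the resorption pit. It was the member called in medium alone and under LPS + MSU alike. In medium alone it was measured at 221 and 234 normalized counts in *Ncoa6*-sufficient and at 384 and 343 in *Ncoa6*-KO BMDMs, a fold of 1.60. The log2 fold change was 0.68 (SE 0.119, adjusted p = 0.0213 from edgeR). Under LPS + MSU the values were 237 and 242 against 435 and 402, a fold of 1.75 and a log2 fold change of 0.80 (SE 0.125, adjusted p = 0.00901 from edgeR). All 4 *Ncoa6*-KO libraries were above all 4 *Ncoa6*-sufficient libraries. Leaving out 1 library kept the log2 fold change between 0.60 and 0.76 in medium alone and between 0.73 and 0.86 under LPS + MSU. The first call was lost without either *Ncoa6*-sufficient library or the first *Ncoa6*-KO library in medium alone (edgeR adjusted p up to 0.267), and the second without the first *Ncoa6*-sufficient or the second *Ncoa6*-KO library under LPS + MSU (up to 0.0899).

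Cathepsin K is also made by fibroblasts and other stromal cells, so their markers were read beside it. The 11 markers of stromal cells and osteoblasts, of which 3 had at most 3 reads in every library, summed to 501 to 542 normalized counts in *Ncoa6*-sufficient and 250 to 617 in *Ncoa6*-KO BMDMs in medium alone. Under LPS + MSU the sums were 913 to 973 against 363 to 915, and edgeR called none of the 8 tested markers in either knockout comparison (0 and 2 at an unadjusted p under 0.05). Of the 8, 6 lay below 0 and 2, *Runx2* and *Alpl*, above 0 in both comparisons. *Lepr*, *Sp7* and *Bglap* were the markers with at most 3 reads. The part of such cells in the *Ctsk* values was not tested.

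*Mmp9* (ENSMUSG00000017737, chromosome 2, 164940780 to 164955850) encodes the gelatinase that osteoclasts and inflammatory macrophages release. In medium alone it was measured at 541 and 440 normalized counts in *Ncoa6*-sufficient and at 293 and 327 in *Ncoa6*-KO BMDMs. The log2 fold change was -0.67 (SE 0.121, adjusted p = 0.0245 from edgeR), with 63.1% left. Under LPS + MSU the values were 1280 and 1158 against 1163 and 1203, and the genotypes overlapped (log2 fold change -0.04, SE 0.115, edgeR adjusted p = 0.896). With scaling by total count this log2 fold change was 0.0301 and not called. The call in medium alone was lost in a fit of only the 4 libraries compared (edgeR adjusted p = 0.0618). It was also lost without the first *Ncoa6*-sufficient or either *Ncoa6*-KO library in medium alone, and without the second *Ncoa6*-KO library under LPS + MSU (edgeR adjusted p up to 0.320). *Mmp9* lies 9.55 Mb from *Ncoa6*, on the same chromosome, and *Ocstamp* lies on it slightly farther away. Mice of both genotypes were homozygous for the floxed *Ncoa6* allele and differed by Cre. The part of linked alleles in the values of *Mmp9* and *Ocstamp* was not tested.

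*Acp5* (ENSMUSG00000001348, chromosome 9, 22126727 to 22135711) encodes tartrate-resistant acid phosphatase, the enzyme used to stain osteoclasts. In medium alone it was measured at 114 and 74.0 normalized counts in *Ncoa6*-sufficient and at 52.1 and 43.9 in *Ncoa6*-KO BMDMs. These did not overlap, and the log2 fold change of -0.97 (SE 0.281) was not called at an edgeR adjusted p of 0.130. It was called by DESeq2 (adjusted p = 0.0311) and by edgeR without a filter (2.57e-05). Under LPS + MSU the values of 684 and 554 against 625 and 407 overlapped (log2 fold change -0.26, SE 0.216, edgeR adjusted p = 0.602). An annotated transcript on the opposite strand, *6530413G14Rik*, shares exon bases with *Acp5* and had a mean of 1.38 reads per library, far under the counts of *Acp5*.

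Whether the knockout effect depended on LPS + MSU was tested as the difference of the 2 effects. edgeR called none of the 7 genes and none of the 17625 genes tested (0.0%), while 1045 genes, 5.93%, had an unadjusted p under 0.05 and DESeq2 called 43 of all genes and none of the 7. *Mmp9* had the smallest p of the 7, with a difference of 0.62 (SE 0.167, edgeR adjusted p = 0.536). For *Tnfrsf11a* it was -0.43 (SE 0.161, edgeR adjusted p = 0.734) and for *Acp5* 0.71 (SE 0.355, edgeR adjusted p = 0.862). For *Ctsk* it was 0.12 (SE 0.172) and for *Dcstamp* 0.22 (SE 0.375), with edgeR adjusted p of 0.969 and 0.980. The difference of *Mmp9* was called without a filter (edgeR adjusted p = 0.0370), and the closing section gives fits with a replicate block that also change calls. In the fit used here, calls under only one condition, such as that of *Mmp9*, are not shown to differ between conditions.

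Averaging the effect over both conditions uses all 8 libraries. By this measure 4 of 7 genes were called, against 8.3% of all genes tested (3.71% higher and 4.59% lower), *Ctsk* higher and *Dcstamp*, *Tnfrsf11a* and *Mmp9* lower. The fit treats the 8 libraries as independent. Within a genotype, libraries with the same replicate number deviated together, with correlations of 0.310 and 0.369. If they came from the same mouse, the p-values of all mean effects in this text are too small, and the sources do not settle this. The mean log2 effect was 0.74 for *Ctsk* (SE 0.0862, adjusted p = 9.47e-04 from edgeR), -1.12 for *Dcstamp* (SE 0.186, adjusted p = 0.00545) and -0.57 for *Tnfrsf11a* (SE 0.0808, adjusted p = 0.00270). These 3 calls held in edgeR without each of the 8 libraries in turn, with edgeR adjusted p up to 0.0106, 0.0343 and 0.0217. *Mmp9* at -0.35 (SE 0.0836, edgeR adjusted p = 0.0263) lost its call without any one of 5 libraries and with scaling by total count (edgeR adjusted p = 0.0529). Those 5 libraries were both *Ncoa6*-KO libraries under LPS + MSU and the first library of each other group, and the edgeR adjusted p without them reached 0.131. *Acp5* at -0.61 (SE 0.177) was not called at an edgeR adjusted p of 0.0597. It was called by DESeq2 (adjusted p = 0.0147), by edgeR without a filter (1.11e-05) and by edgeR without the second *Ncoa6*-sufficient library in medium alone (0.0469) or the first *Ncoa6*-KO library given LPS + MSU (0.0254).

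LPS + MSU itself changed most of these genes in both genotypes. In *Ncoa6*-sufficient BMDMs *Acp5*, *Mmp9*, *Tnfrsf11a* and *Ocstamp* rose and *Nfatc1* fell, which is 5 of 7 genes called beside 55.2% of all genes tested (24.7% higher and 30.5% lower). In *Ncoa6*-KO BMDMs *Acp5*, *Mmp9* and *Tnfrsf11a* rose and *Nfatc1* fell, 4 of 7 beside 53.1% (25.2% higher and 27.9% lower). Both shares lie near that background. *Ctsk* and *Dcstamp* were called in neither genotype with TMM scaling, and both were called lower in both genotypes with scaling by total count. The libraries with and without LPS + MSU did not overlap for 7 of 7 genes in *Ncoa6*-sufficient BMDMs, against 78.5% of all genes, and for 6 of 7 in *Ncoa6*-KO BMDMs, against 76.5%.

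Of the 7 genes, *Acp5* moved most, from a mean of 94.0 ± 28.4 to 619 ± 92.5 normalized counts (SD, n = 2 libraries) for *Ncoa6*-sufficient and from 48.0 ± 5.82 to 516 ± 154 in *Ncoa6*-KO BMDMs. The log2 fold changes were 2.71 (SE 0.241, adjusted p = 2.30e-06 from edgeR) and 3.42 (SE 0.261, adjusted p = 7.09e-07 from edgeR), a fold of 6.53 and of 10.7. *Mmp9* rose by 1.31 (SE 0.118) and 1.93 (SE 0.122) on the log2 scale, with edgeR adjusted p of 2.53e-06 and 1.46e-07, and its *Ncoa6*-KO libraries under LPS + MSU reached the counts of the *Ncoa6*-sufficient ones. *Tnfrsf11a* rose by 1.06 (SE 0.114, edgeR adjusted p = 1.14e-05) in *Ncoa6*-sufficient and by 0.63 (SE 0.115, edgeR adjusted p = 7.53e-04) in *Ncoa6*-KO BMDMs. The latter turned to -0.01 (edgeR adjusted p = 0.940) when libraries were scaled by total count. In TPM, *Tnfrsf11a* was 28.5 in medium alone and 27.7 under LPS + MSU in *Ncoa6*-KO BMDMs.

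*Nfatc1* fell by 1.36 (SE 0.116, edgeR adjusted p = 1.58e-06) on the log2 scale in *Ncoa6*-sufficient BMDMs. In *Ncoa6*-KO BMDMs it fell by 1.37 (SE 0.116, edgeR adjusted p = 1.61e-06). This left 38.9% and 38.6% of the level in medium alone. *Ocstamp* rose in *Ncoa6*-sufficient BMDMs by 1.82 (SE 0.637, edgeR adjusted p = 0.0307). This call was lost with scaling by total count, with DESeq2, without a filter and with the replicate number as a block within each genotype. It was also lost without either *Ncoa6*-sufficient library given LPS + MSU or the first in medium alone (edgeR adjusted p up to 0.154). *Ctsk* at 0.08 (SE 0.126, edgeR adjusted p = 0.637) and 0.20 (SE 0.118, edgeR adjusted p = 0.178) was not called. Scaling by total count turned both of these to called decreases, as given in the closing section. *Dcstamp* stood at -0.29 (SE 0.246, edgeR adjusted p = 0.342) in *Ncoa6*-sufficient and at -0.07 (SE 0.281, edgeR adjusted p = 0.860) in *Ncoa6*-KO BMDMs. With scaling by total count these were -0.96 and -0.70 and called (edgeR adjusted p = 0.00404 and 0.0409).

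The choice of scaling moved the responses more than the knockout effects. TMM factors were 1.23 to 1.29 in medium alone and 0.766 to 0.829 under LPS + MSU. Total-count scaling moved the median log2 response of all genes by -0.661 in *Ncoa6*-sufficient and by -0.632 in *Ncoa6*-KO BMDMs, and DESeq2's size factors moved it by 0.112 and 0.0567. With total-count scaling the called members numbered 3 higher and 3 lower in *Ncoa6*-sufficient and 2 higher and 3 lower in *Ncoa6*-KO BMDMs, against 4 higher and 1 lower and 3 higher and 1 lower with TMM. The shares of all genes called with total-count scaling are not given here, so these counts have no background beside them. The same change of scaling moved the medians of the knockout effects by at most 0.0723.

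**Figure D3:**
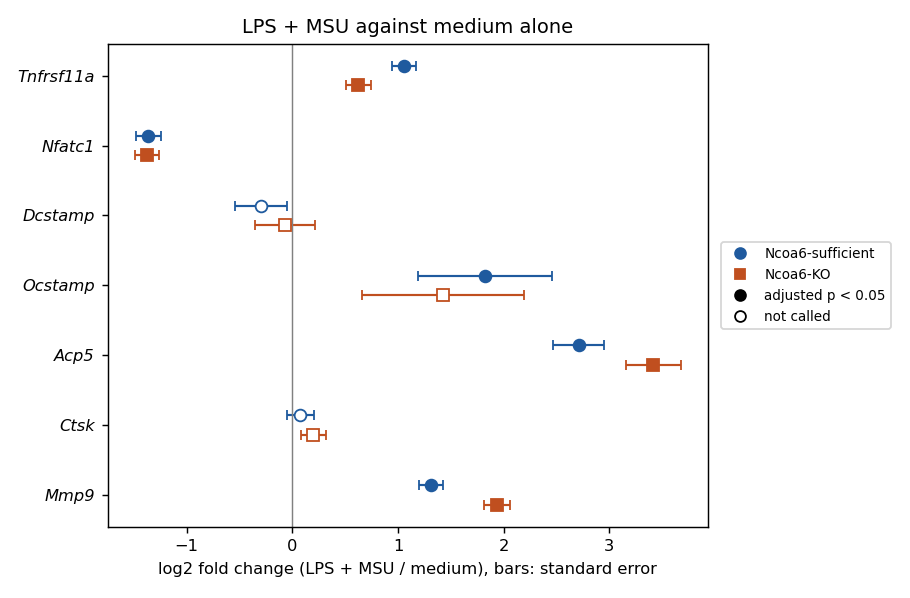
Log2 fold change of LPS + MSU over medium alone (horizontal axis, TMM scaling) for the 7 tested genes in *Ncoa6*-sufficient (circles) and *Ncoa6*-KO (squares) BMDMs. Bars are standard errors and filled symbols have an edgeR adjusted p under 0.05. *Acp5* lies farthest to the right at 2.71 and 3.42, and *Nfatc1* lies at -1.36 and -1.37.

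Genes around the 9 in the osteoclast pathway were read from 6 lists, taken from general knowledge of the pathway with earlier results of these data known. The lists are described by counts and medians, to be read beside 1.88% of all genes called in medium alone and 3.59% under LPS + MSU. The signalling list holds 14 genes for RANKL, its decoy receptor, M-CSF, their receptors and adaptors, and NF-κB. *Tnfsf11*, which encodes RANKL, had 0 reads in every library, which allows up to 3 reads in each. Of the 13 others, none was called in either knockout comparison by edgeR or DESeq2 (unadjusted p under 0.05 in edgeR for 1 and 2 genes), with medians of -0.10 and -0.00079. *Csf1*, which encodes M-CSF, rose under LPS + MSU from a mean of 702 to 15717 normalized counts in *Ncoa6*-sufficient BMDMs and from 556 to 18812 in *Ncoa6*-KO BMDMs. Its knockout effects were -0.34 (SE 0.131) and 0.26 (SE 0.123), with edgeR adjusted p of 0.289 and 0.312. The knockout effects of *Relb*, an NF-κB subunit, were -0.11 and 0.25, with edgeR adjusted p of 0.715 and 0.198.

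ITAM costimulation is the second signal that precursors need, sent through DAP12 and FcRγ to SYK and PLCγ. Of 9 tested genes of that list, 1 was called lower in both comparisons. This was *Lcp2*, which encodes the adaptor SLP-76. It was measured at 1755 and 1578 normalized counts in *Ncoa6*-sufficient and at 1073 and 1147 in *Ncoa6*-KO BMDMs in medium alone, and at 14824 and 12930 against 9395 and 8928 under LPS + MSU. The log2 fold changes were -0.59 (SE 0.108, adjusted p = 0.0250 from edgeR) and -0.60 (SE 0.106, adjusted p = 0.0142 from edgeR). The first call was lost without any one of 6 libraries (all but the *Ncoa6*-sufficient libraries given LPS + MSU) and the second without the first *Ncoa6*-sufficient or the second *Ncoa6*-KO library given LPS + MSU, with edgeR adjusted p up to 0.320 and 0.145. The list medians were -0.08 and -0.06.

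The transcription factors that promote osteoclasts form a list of 11 tested genes, of which none was called in a knockout comparison by edgeR, where 4 had an unadjusted p under 0.05 in each. DESeq2 called 1 lower under LPS + MSU and none in medium alone. All 11 lay below 0 in medium alone, under each scaling tried, where 9814 of the 17625 genes did, with a median of -0.29, and the median under LPS + MSU was 0.0056. *Fos*, an AP-1 subunit without which osteoclasts do not form, was measured at 402 and 465 normalized counts against 271 and 284 in *Ncoa6*-KO BMDMs in medium alone, and at 858 and 613 against 408 and 564 under LPS + MSU. Its log2 fold changes of -0.64 (SE 0.182) and -0.60 (SE 0.182) had edgeR adjusted p of 0.119 and 0.109. Averaged over both conditions *Fos* was lower by edgeR (-0.62, SE 0.128, adjusted p = 0.0145), a call lost without the first *Ncoa6*-sufficient library given LPS + MSU or the second in medium alone (edgeR adjusted p up to 0.0653). *Jdp2*, another AP-1 family member, stood at -0.43 and 0.32, with edgeR adjusted p of 0.126 and 0.121.

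Among 5 transcription factors that restrain osteoclasts, none was called in medium alone by edgeR (0 at an unadjusted p under 0.05) or DESeq2, and 1 was lower under LPS + MSU. The medians were 0.08 and -0.17. *Bcl6*, a repressor of osteoclast genes, was measured at 3426 and 2971 normalized counts in *Ncoa6*-sufficient and at 2160 and 2359 in *Ncoa6*-KO BMDMs under LPS + MSU, with a log2 fold change of -0.50 (SE 0.0995, adjusted p = 0.0228 from edgeR). *Irf8*, which opposes NFATc1, had the largest difference of the list, at 8885 and 5113 against 4181 and 2551, but its libraries spread widely and the log2 fold change of -1.06 (SE 0.259) was not called at an edgeR adjusted p of 0.0528. It was called with DESeq2's size factors (edgeR adjusted p = 0.0488), without a filter and with the replicate number as a block across all groups (edgeR adjusted p = 9.42e-05), and not by DESeq2. It ran from -1.47 to -0.61 with 1 library left out, and was called without the second *Ncoa6*-sufficient or the first *Ncoa6*-KO library given LPS + MSU or the second *Ncoa6*-KO library in medium alone (edgeR adjusted p down to 0.0187). The call of *Bcl6* was lost in a fit of only the 4 libraries given LPS + MSU (edgeR adjusted p = 0.0588) and without any one of them but the second *Ncoa6*-sufficient library (up to 0.201).

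None of 10 other genes of cell fusion was called in a knockout comparison by edgeR (1 and 4 at an unadjusted p under 0.05), and DESeq2 called none in medium alone and 2 higher under LPS + MSU. The medians were 0.0060 and 0.21. *Atp6v0d2*, a proton pump subunit that also serves fusion, was measured at 1248 and 895 normalized counts in *Ncoa6*-sufficient and at 1626 and 1139 in *Ncoa6*-KO BMDMs in medium alone, and at 410 and 343 against 740 and 568 under LPS + MSU. Its log2 fold changes were 0.37 (SE 0.194) and 0.80 (SE 0.218), with edgeR adjusted p of 0.485 and 0.0767. The latter was called with total-count scaling, with DESeq2, without a filter, in a fit of only the libraries compared and without either *Ncoa6*-KO library in medium alone. A replicate block across all groups also gave a call (edgeR adjusted p = 2.53e-04). Averaged over both conditions *Atp6v0d2* was higher (0.58, SE 0.146, edgeR adjusted p = 0.0341), a call lost with limma and without any one of 5 libraries (edgeR adjusted p up to 0.114), all but the first *Ncoa6*-sufficient library in medium alone and the second *Ncoa6*-KO library of each condition. The fusion regulator *Cd47*, the ligand of SIRPα, stood at -0.43 (SE 0.135) and -0.30 (SE 0.135), with edgeR adjusted p of 0.169 and 0.289. Averaged over both conditions *Cd47* was lower (-0.36, SE 0.0954, edgeR adjusted p = 0.0417), a call lost without any one of 6 libraries, all but the first *Ncoa6*-KO library of each condition (edgeR adjusted p up to 0.181).

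The list of acid secretion, attachment and resorption held 13 tested genes. In medium alone 1 was called higher and 1 lower, and under LPS + MSU 2 were higher and 1 lower, with medians of 0.04 and 0.10. *Itgb3*, which encodes the β3 chain of the vitronectin receptor that seals the osteoclast to bone, was measured at 555 and 597 normalized counts in *Ncoa6*-sufficient and at 1439 and 1508 in *Ncoa6*-KO BMDMs in medium alone, and at 125 and 150 against 305 and 506 under LPS + MSU. Its log2 fold changes were 1.36 (SE 0.174, adjusted p = 0.00463 from edgeR) and 1.56 (SE 0.216, adjusted p = 0.00518 from edgeR). *Mmp14*, a membrane-bound collagenase, was measured at 624 and 466 against 177 and 138 in medium alone, and at 12969 and 11437 against 8048 and 6653 under LPS + MSU. Its log2 fold changes were -1.78 (SE 0.178, adjusted p = 0.00169 from edgeR) and -0.73 (SE 0.153, adjusted p = 0.0287 from edgeR).

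*Src*, the kinase that osteoclasts need for their ruffled border, was measured under LPS + MSU at 1714 and 1898 normalized counts in *Ncoa6*-sufficient and at 2899 and 2837 in *Ncoa6*-KO BMDMs. The log2 fold change was 0.67 (SE 0.136, adjusted p = 0.0258 from edgeR). In medium alone it was 0.63 (SE 0.180) and not called at an edgeR adjusted p of 0.122. Without the first *Ncoa6*-sufficient library of the condition, *Itgb3* lost both calls, with edgeR adjusted p of up to 0.112 and 0.0697. *Mmp14* kept the call in medium alone without each library in turn and lost the one under LPS + MSU without either *Ncoa6*-sufficient or the second *Ncoa6*-KO library given LPS + MSU (edgeR adjusted p up to 0.250). *Src* lost its call without any one of the 4 libraries given LPS + MSU (edgeR adjusted p up to 0.227).

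**Figure D4:**
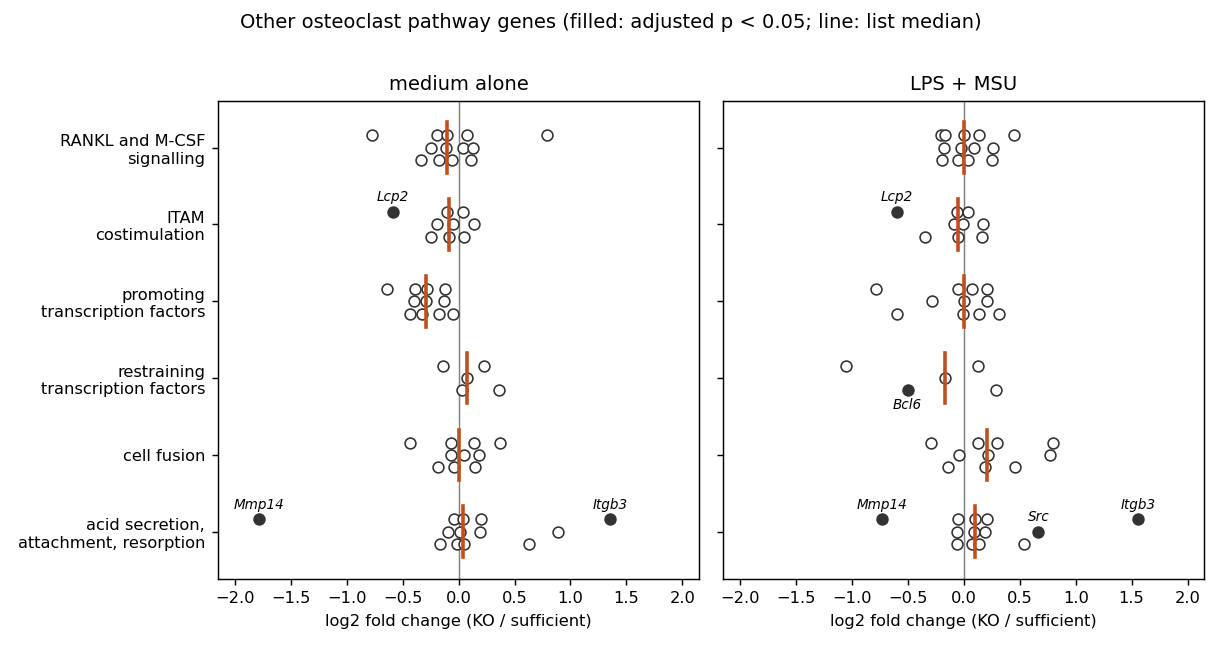
Log2 fold change of *Ncoa6*-KO over *Ncoa6*-sufficient BMDMs (horizontal axis) for each tested gene of the 6 pathway lists (rows), in medium alone (left) and under LPS + MSU (right). Each circle is 1 gene, filled and named where the edgeR adjusted p was under 0.05, and the vertical line is the list median. *Mmp14* and *Itgb3* lie at opposite ends of the resorption list in both panels, at -1.78 and 1.36 on the left.

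The responses of the lists to LPS + MSU are read beside 24.7% of all genes called higher and 30.5% called lower. In *Ncoa6*-sufficient BMDMs, 8 of the 13 signalling genes rose and 2 fell, and 9 of the 11 promoting factors rose and 1 fell. For cell fusion 3 of 10 rose and 4 fell, and for resorption 7 of 13 rose and 3 fell. Scaling by total count changed these to 7 and 4, 6 and 3, 3 and 7, and 7 and 6. The shares of all genes given above are those with TMM scaling. Total-count scaling moved the median log2 response of all genes by -0.661, and its own shares are not given here. Of the other lists, with TMM scaling in *Ncoa6*-sufficient BMDMs, 4 of the 9 ITAM genes rose and 2 fell. Likewise 4 of the 5 restraining factors rose and 0 fell. *Mmp14* rose by 4.48 and *Src* by 4.22 on the log2 scale, and *Itgb3* fell by 2.07, with TMM scaling in *Ncoa6*-sufficient BMDMs.

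*Ctsk* had the smallest p of the mean knockout effect among the 9 genes, and genes whose log2 level was like it over the 8 libraries were looked up among 11219 genes whose mean was 50 normalized counts or more. The Pearson r was 0.981 for *Tpp1*, which encodes a lysosomal peptidase, 0.980 for *Npdc1*, 0.970 for *Bhlhb9* and 0.965 for *Selenom*. The 8 points share 2 genotypes and 2 conditions, so these values describe the pattern of the 4 groups and carry no test. *Npdc1* had the widest gap of these, with means of 31.2 and 36.6 normalized counts in *Ncoa6*-sufficient and 132 and 156 in *Ncoa6*-KO BMDMs in medium alone and under LPS + MSU.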

How the data were processed

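Stranded poly(A) libraries from 8 BMDM cultures were sequenced in read pairs. Per the study's methods and processing notes, the authors aligned with STAR 2.7.3a to GRCm38 and quantified genes with RSEM 1.3.3. The deposited values are expected counts, not normalized. They were rounded here, and genes summing to under 10 were left out, as in the study's methods. edgeR 4.0.16 (R 4.3.3) fitted the 4 groups with TMM factors and 4 residual degrees of freedom. The median biological coefficient of variation was 0.114. Standard errors are the log2 fold change over the root of F. TPM used exon lengths from GENCODE on GRCm38, found for 50374 of 50615 genes. Counting limits cover counting error only.

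All 9 members are named, with at most 4 genes per list, called genes first and then by p. Some genes that this rule covers are not reported here and were left out of the lists. Marker genes were named after their values were seen. The members and lists were chosen with earlier results of these data known. Alternatives were DESeq2 1.42.0 and its size factors, limma 3.58.1 voom, filterByExpr, no filter, replicate blocks, a fit of only the libraries compared, each library left out, and total-count scaling, added after the TMM factors were seen.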

Additional observations from a re-analysis of the deposited data

How the results depend on the processing

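Of the values of single members, 312 kept their direction and their side of the threshold under the alternatives other than leaving out a library, 14 gained a call, 6 lost one and 5 changed sign. With 1 library left out, where the lone library of a group is assumed to vary like the other groups, 296 kept both, 3 gained a call, 25 lost one and 12 changed sign. With medium alone, 5 members were called without a filter, and 0 to 3 with 1 library left out; with LPS + MSU, 0 to 3 were called with 1 library left out. The count was 0 without the first library of either genotype with medium alone in the former, and 0 without the first *Ncoa6*-sufficient or the second *Ncoa6*-KO library given LPS + MSU in the latter. For the difference of knockout effects, 1 member was called without a filter. Scaling by total count turned *Mmp9* with LPS + MSU to 0.0301, the response of *Ctsk* to -0.59 and -0.43 in *Ncoa6*-sufficient and *Ncoa6*-KO BMDMs (edgeR adjusted p = 0.00141 and 0.00734), that of *Tnfrsf11a* in *Ncoa6*-KO BMDMs to -0.0101 and the difference of *Nfatc1* to 0.0266. Changes of sign with 1 library left out were all in values without a call: *Nfatc1* ran from -0.16 to 0.0263 with medium alone, from -0.20 to 0.0277 with LPS + MSU, from -0.17 to 0.0853 for the difference and from -0.12 to 0.00017 for the mean effect. *Acp5* ran from -0.62 to 0.0097 and *Mmp9* from -0.13 to 0.0199 with LPS + MSU, *Dcstamp* from -0.67 to 0.34 for the response of *Ncoa6*-KO BMDMs and from -0.43 to 0.59 for the difference, and *Irf8* from -0.30 to 0.0074 with medium alone. The cause of these changes was not tested. Over all genes, 331 were called with medium alone and 632 with LPS + MSU, against 1152 and 1611 without a filter, 496 and 849 with DESeq2 and 347 with LPS + MSU in a fit of only the 4 libraries compared. With LPS + MSU, 345 were higher and 287 lower, against 480 and 218 with total-count scaling.

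Libraries with the same replicate number deviated together within a genotype, with correlations of 0.310 and 0.369 over 11219 genes, and less so across genotypes, where correlations ran from 0.0523 to 0.199. The labels do not tie the numbers to mice. With the replicate number as a block across all groups, 4 members were called with medium alone, 3 with LPS + MSU and 5 for the mean effect, the gains including *Acp5* in medium alone and for the mean effect (edgeR adjusted p = 0.00349 and 0.00117), and 1023 and 1532 of all genes in the 2 knockout comparisons. With a replicate block within each genotype, the difference of knockout effects was called for 2 members, *Mmp9* and *Tnfrsf11a* (edgeR adjusted p = 0.00503 and 0.0418), and for 444 of all genes. With 2 libraries a group and 38, 9 and 5 reads in all, differences of *Ocstamp*, *Oscar* and *Calcr* could not be measured closely.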
